A study of Mus musculus with 2 samples.

Results

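Macrophages of MC38 tumors that carried RNA of many genes of DNA replication, but of few genes of mitosis, were chosen from single-cell counts and are called S-phase entry macrophages here. A cell was chosen when it carried at least 5 UMIs (unique molecular identifiers, that is, single RNA molecules) of *Lyz2* and none of *Cd3d*, *Cd3e* or *Cd3g*. It also needed at least 10 UMIs per 10000, and at least 5 in all, of *Mcm2*, *Mcm3*, *Mcm4*, *Mcm5*, *Mcm6*, *Ung*, *Uhrf1* and *Hells* together. Fewer than 4 of the 6 mitotic genes *Top2a*, *Mki67*, *Birc5*, *Ccna2*, *Ube2c* and *Prc1* could have a UMI. This gave 267 cells, of 8175 *Lyz2* macrophages and of 9911 cells with 1 Sample Tag within the limits on quality. The capture held 20726 putative cells in all.

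Female C57BL/6 mice of 6 to 8 weeks carried MC38 colon tumors under the skin and received telmisartan at 5 mg/kg or vehicle by gavage each day from implantation. Tumors were taken on day 13, and live CD45+ cells were sorted. Each group was a pool of 5 mice marked by 1 Sample Tag, and both pools shared 1 BD Rhapsody capture. The mice of a pool cannot be told apart, so cells give no replicates, no test was made between the groups, and every interval below is a 95% interval for counting error only.

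A cell that commits to division first loads the MCM helicase onto replication origins, a step called licensing that needs the origin recognition complex, Cdc6 and Cdt1. E2F transcription factors, released from the retinoblastoma protein by cyclin-dependent kinases, drive the genes for the helicase, the polymerases and nucleotide synthesis. Mature macrophages are often at rest, but many divide in tissues and tumors, where the receptor for CSF1 is a known growth signal.

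The control pool held 175 of the chosen cells and the telmisartan pool 92. They carried 2398279 and 1018958 UMIs, with medians of 13774 and 10860 UMIs and of 3689 and 3175.5 genes per cell. Other *Lyz2* macrophages, with neither gate met, numbered 3695 and 3360 and were shallower, at medians of 9051 and 6906.5 UMIs. Mitotic macrophages, with at least 4 of the 6 mitotic genes, numbered 451 and 402 and had medians of 14893 and 12839.5 UMIs. Depth therefore differed both between the classes and between the groups, and its part in the results below was not tested unless a value at equal depth is given.

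The label was checked against its markers, which is a description, since the cells were selected on them. The median cell had 14.3 UMIs of the 8 replication genes per 10000, and the highest had 33.9. The median count was 21 UMIs in control and 15 in telmisartan cells, with a range from 5 to 59. At least 6 of the 8 genes had a UMI in 144 of 175 control cells (82.3%, 75.8 to 87.6%) and in 62 of 92 telmisartan cells (67.4%, 56.8 to 76.8%). The gate was thus met through many genes at once in most of the cells, while 68 of 7055 other macrophages (0.964%) had as many. Just outside the threshold, at 9 to 10 UMIs per 10000, lay 41 cells (30 control and 11 telmisartan). Just inside it, at 10 to 11, lay 36 (19 and 17), so the cells ran on across the threshold. A further 8 cells passed 10 per 10000 with under 5 UMIs. On the mitotic side, 33 control and 15 telmisartan cells met the replication gate with 3 mitotic genes, and 33 and 17 with 4.

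Levels are UMIs summed over the cells of a group, per 1000000 UMIs (CPM), and ratios are on the log2 scale. Macrophage genes were abundant. *C1qb*, a complement subunit, had 2448 CPM in control and 2374 CPM in telmisartan cells, and *Cd68*, a lysosomal protein of macrophages, had 928 CPM in control and 1013 CPM in telmisartan cells. Markers of other cells were sparse. Of the B cell markers, *Cd79b* had 8 UMIs, and *Cd79a* and *Ms4a1* had 0. The 7 T cell markers summed to 8.34 CPM in control and 10.8 CPM in telmisartan cells, led by *Skap1*, with *Cd4* at 0. The 7 dendritic markers summed to 25.9 CPM in control and 15.7 CPM in telmisartan cells, led by *Clec9a* with 27 UMIs and with none of the 7 at 0. The 4 neutrophil markers summed to 15.01 CPM in control and 13.7 CPM in telmisartan cells, led by *Csf3r*, and the 4 NK markers to 2.502 CPM in control and 1.96 CPM in telmisartan cells, led by *Klrb1c* and *Ncr1* with 3 UMIs each and with *Klre1* at 0. The 5 tumor epithelial markers summed to 70.1 CPM in control and 34.3 CPM in telmisartan cells, nearly all of it *Cdh1*, while *Krt8*, *Krt18* and *Krt19* were at 0. The 6 stromal and endothelial markers summed to 23.4 CPM in control and 20.6 CPM in telmisartan cells, led by *Pecam1*.

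Cells with reads split between both tags made up 5.99% of cells meeting the S-phase entry gate, 7.48% of mitotic and 8.19% of other macrophages. Neutrophil-like cells served as a background for free RNA. In 34 of them the 8 replication genes stood at 48.3 CPM against 126 in other macrophages, from 4 UMIs. Of the 34, 27 lay outside the macrophage gate, and the rest were also counted as macrophages. The median depth of the 34 was 1952.5 UMIs, against 12773 in S-phase entry cells. How many of the 34 met the gate of at least 5 UMIs is therefore not used here.

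S-phase entry cells were a larger share of control than of telmisartan macrophages. They made up 175 of 4321 control macrophages (4.05%, 3.48 to 4.68%) and 92 of 3854 telmisartan macrophages (2.39%, 1.93 to 2.92%). Mitotic cells, in contrast, were 10.4% of both (9.54 to 11.4% and 9.48 to 11.4%). At 5000 UMIs per cell, drawn at random before the gate was applied, the shares were 7.20% (6.37 to 8.10%) and 4.75% (3.99 to 5.62%), with 720 control and 1061 telmisartan cells left out as shallower. The order of the groups was thus kept at equal depth. Among the macrophages of at least 5000 UMIs, the shares before thinning were 4.75% (4.08 to 5.49%) in control and 3.11% (2.50 to 3.83%) in telmisartan macrophages. Of the cells that met the gate at 5000 UMIs, 56.2% had met it before. With at least 15 UMIs of the replication genes per 10000 the shares were 1.94% and 0.934%, and with fewer than 2 mitotic genes 1.94% and 1.14%. The mitotic shares at 5000 UMIs were 9.26% in control and 11.2% in telmisartan macrophages, the opposite order, with intervals that overlap (8.32 to 10.3% and 10.1 to 12.5%). With or without mitotic genes, the replication gate was met by 6.99% of control and 4.85% of telmisartan macrophages. Among mitotic cells alone it was met by 28.2% (24.1 to 32.6%) and 23.6% (19.6 to 28.1%), with intervals that overlap.

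**Figure D1:**
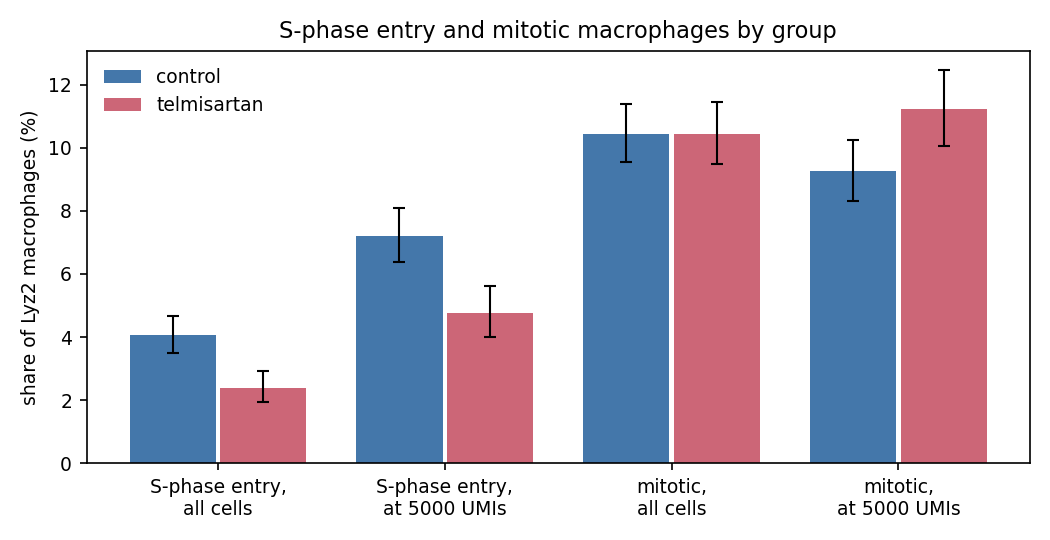
Share of S-phase entry and mitotic cells among Lyz2 macrophages of each pool, in all cells and at 5000 UMIs per cell. Bars are exact 95% intervals for counting error only.

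Over all genes, the groups lay close together within these cells. Among 4913 genes with at least 100 UMIs the median log2 ratio of telmisartan over control was -0.04, with quartiles of -0.24 and 0.16, and 55.4% of genes were lower. At least 2-fold higher were 46 (0.936%), and at least 2-fold lower were 26 (0.529%). The share at least 2-fold lower depended on the minimum of UMIs. It was 0.265% with at least 300 UMIs and rose with at least 50, as given below. As UMIs per cell without scaling the median was -0.35, and 0.346% of genes were at least 2-fold higher and 2.79% at least 2-fold lower. Against other macrophages, 576 of 10907 genes (5.28%) were at least 2-fold higher and 428 (3.92%) at least 2-fold lower. Without scaling, every ratio against other macrophages is higher by the same amount, which takes the replication genes below from 2.02 to 2.62.

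Replication genes outside the gate were high as a set, which is description since they follow the genes of the gate. The 89 genes stood at 2.02 (2.00 to 2.04) log2 over other macrophages, and 79 of 85 with enough UMIs were at least 2-fold higher, beside 5.28% of all genes, a contrast the choice of cells fixed. Against mitotic macrophages their sum stood at -0.05 (-0.07 to -0.03), with parts that went both ways: nucleotide supply at -0.53, S-phase repair at -0.25 and licensing at 0.25. Genes of G2 and mitosis outside the gate stood at 1.36 (1.29 to 1.43) over other macrophages, with 19 of 28 at least 2-fold higher, and at -2.73 against mitotic macrophages. Among genes outside the gate with at least 200 UMIs in S-phase entry and other macrophages together, the highest were *Clspn*, an adaptor of the replication checkpoint, at 4.44, and *Fignl1*, a factor of recombination, at 4.12. *Ccne2*, a cyclin of the G1/S step, stood at 4.10, and *Rrm2*, a subunit of ribonucleotide reductase, at 4.04. *Dtl*, which marks Cdt1 for destruction, stood at 3.90 and *Cdc6* at 3.87. *Chek1*, the checkpoint kinase, stood at 3.84, *Tk1*, thymidine kinase, at 3.80, and *Cdc45*, a partner of the helicase, at 3.68.

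Between the groups, the same 89 genes were slightly lower with telmisartan, at -0.14 (-0.18 to -0.09) log2, but at 0.00053 in cells with fewer than 2 of the 6 mitotic genes. The level was 5883 CPM in control and 5352 CPM in telmisartan cells. Of 64 genes with at least 100 UMIs, 15 were higher and 49 lower, beside the 55.4% of all genes that were lower, and 0 were past 2-fold in either direction, beside 0.936% and 0.529% of all genes. In other macrophages the ratio was -0.13. The gate's own 8 genes, on which the cells were selected, stood at -0.04 (-0.13 to 0.04).

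Licensing genes were lower with telmisartan as a sum, with 625 CPM in control and 533 CPM in telmisartan cells. The ratio was -0.23 (-0.37 to -0.09), near the -0.24 of other macrophages. Of 7 genes with at least 100 UMIs, 1 was higher and 6 lower, beside the 55.4% of all genes that were lower. None was past 2-fold, beside 0.936% of all genes higher and 0.529% lower. *Orc6*, a subunit of the origin recognition complex, had 72.1 CPM in control and 44.2 CPM in telmisartan cells, a ratio of -0.71 (-1.21 to -0.23). *Cdc6*, which loads the helicase, had 45.4 CPM in control and 29.4 CPM in telmisartan cells, a ratio of -0.63 (-1.26 to -0.03). *Gmnn*, the inhibitor of Cdt1, had 131 CPM in control and 100.1 CPM in telmisartan cells, a ratio of -0.38 (-0.72 to -0.06). *Mcm7*, a helicase subunit that the gate did not use, lay level at -0.02 (-0.30 to 0.25). *Orc2* and *Orc4* went the other way, at 0.32 and 0.15, with *Orc4* turning to -0.15 without scaling.

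Genes that fire origins stood at -0.23 (-0.41 to -0.06), with -0.16 in other macrophages. Of 6 with at least 100 UMIs, 2 were higher, beside 44.6% of all genes, and 0 were past 2-fold. *Topbp1*, a scaffold of origin firing and of the checkpoint, had 104 CPM in control and 72.6 CPM in telmisartan cells, a ratio of -0.52 (-0.92 to -0.14). *Gins2* went the other way at 0.54, turning to -0.06 when the chosen cells were thinned to 5000 UMIs. Polymerase and fork genes stood at -0.13 (-0.20 to -0.05), with 4 of 22 higher and -0.11 in other macrophages. Their most abundant gene was *Pcna*, the sliding clamp, at -0.08 (-0.24 to 0.08). *Fen1*, the nuclease that trims Okazaki fragments, was an exception with 91.7 CPM in control and 122 CPM in telmisartan cells, a ratio of 0.41 (0.08 to 0.73). S-phase repair genes stood at -0.22 (-0.40 to -0.04), with 0.01 in other macrophages.

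Nucleotide supply was near level at -0.05 (-0.18 to 0.07), with -0.24 in other macrophages, and its genes went apart. *Rrm2* was higher with telmisartan, at 69.6 CPM in control and 116 CPM in telmisartan cells, a ratio of 0.73 (0.38 to 1.08), and lay at 0.02 in other macrophages. *Rrm1*, its partner subunit, stood at -0.16 (-0.44 to 0.12), and *Tyms*, thymidylate synthase, at -0.39 (-0.88 to 0.08). Genes of chromatin assembly stood at -0.11 (-0.20 to -0.03), with -0.09 in other macrophages. *Chaf1b*, a subunit of the CAF-1 histone chaperone, was higher at 0.61 (0.21 to 1.01). *Slbp*, which binds the stem-loop of histone messages, was lower at -0.45 (-0.80 to -0.11), as was *Atad2*, a chromatin ATPase, at -0.45 (-0.77 to -0.13).

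The switches of the G1/S step did not move as 1 group. Activators stood at -0.05 (-0.13 to 0.04) and inhibitors at 0.48 (0.37 to 0.59), where other macrophages had 0.39. *Cdkn1a*, the p21 inhibitor of cyclin-dependent kinases, held most of the UMIs of the inhibitors, with 399.9 CPM in control and 714 CPM in telmisartan cells, a ratio of 0.84 (0.70 to 0.98) against 0.54 in other macrophages. The 3 other inhibitors with at least 100 UMIs went both ways, with *Cdkn1b*, p27, at 0.27 (-0.05 to 0.59), *Rb1*, the retinoblastoma protein, at -0.39 (-0.86 to 0.07) and *Rbl1*, its relative, at -0.48 (-0.97 to -0.01). *Cdkn1b* turned to -0.04 without scaling. *Cdkn1a* was lower in S-phase entry cells than in other macrophages, at -0.55 (-0.62 to -0.48), but at 0.05 as UMIs per cell without scaling. The D cyclins, which respond to growth factors, went in both directions. *Ccnd2* stood at 0.41 (0.15 to 0.66) and *Ccnd3* at -0.50 (-0.80 to -0.20). *Ccnd1* stood at 0.17 (0.02 to 0.33), turning to -0.13 without scaling. *Skp2*, a ligase subunit that removes p27, stood at -1.41 (-2.70 to -0.32) with few UMIs. Genes of G2 and mitosis outside the gate stood at -0.06 (-0.20 to 0.07), turning to 0.07 when the cells chosen at full depth were thinned to 5000 UMIs.

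**Figure D2:**
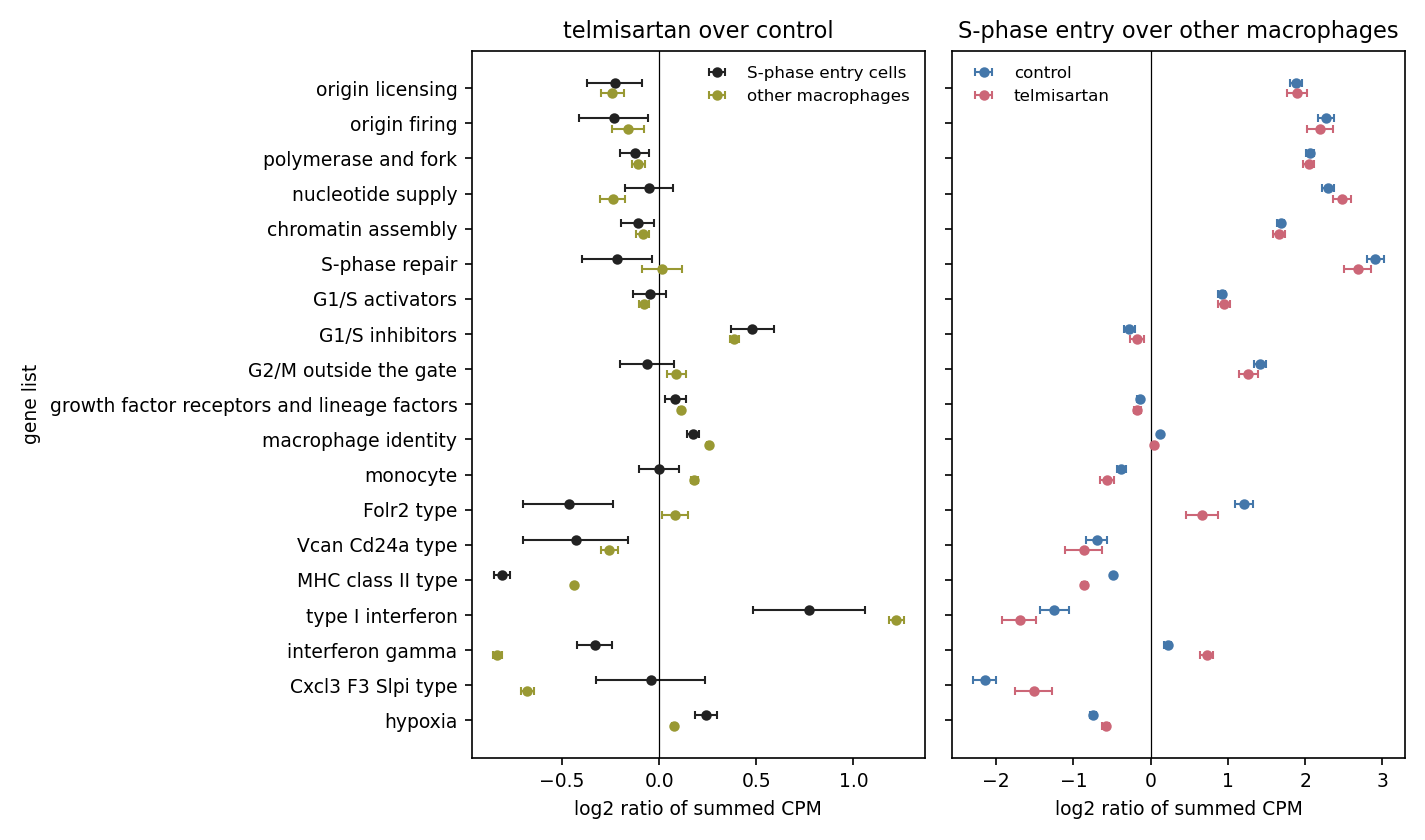
Summed level of each gene list, telmisartan over control in S-phase entry and in other macrophages (left), and S-phase entry over other macrophages in each pool (right). Bars are 95% intervals for counting error only.

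The chosen cells covered a range, from 52 with none of the 6 mitotic genes to 48 with 3 of them. In between lay 76 cells with 1 and 91 with 2. Median depths were 11621.5, 12629, 14162 and 13269 UMIs in that order, and the split uses values of the rule itself, so what follows is a description of a range and not of types. The 8 genes of the gate, whose minimum every chosen cell passed, had 1318, 1535, 1627 and 1656 CPM. *Rrm2* had 12.1, 32.5, 108 and 178 CPM, and *Tk1* had 34.6, 39.9, 86.0 and 126 CPM. *Cdc6* had 10.4, 24.1, 55.2 and 64.7 CPM, and *Ccne2* had 8.64, 17.8, 42.6 and 40.4 CPM. *Cdk1*, the kinase of mitotic entry, had 44.9, 57.7, 90.8 and 150.4 CPM, and *E2f1* had 81.2, 97.6, 114 and 150.4 CPM. *Pcna* had 292, 441, 505 and 519 CPM. In the 222 mitotic cells that met the replication gate, *Rrm2* reached 432 CPM and *Pcna* 812 CPM.

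Histone genes behaved apart from replication genes. The sum of 66 replication-dependent histone genes was lower in S-phase entry cells than in other macrophages, at -0.72 (-0.81 to -0.63), but its members went both ways. Of 16 with enough UMIs 6 were higher, beside 53.8% of all genes. At least 2-fold higher were 2 and at least 2-fold lower were 4, beside 5.28% and 3.92% of all genes. No UMI was seen for 26 of the 66. Their messages end in a stem-loop without a poly(A) tail, and the capture is by poly(A), so the counts say little of histone supply. *Hist1h1c*, a linker histone, held 502 of the 982 UMIs and stood at -0.92 (-1.05 to -0.79). *Hist1h1b*, another linker histone, was higher than in other macrophages at 2.27 (1.61 to 2.89). Against mitotic macrophages the histone sum stood at -0.999. Between the groups it stood at -0.63 (-0.85 to -0.40), near the -0.71 of other macrophages.

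**Figure D3:**
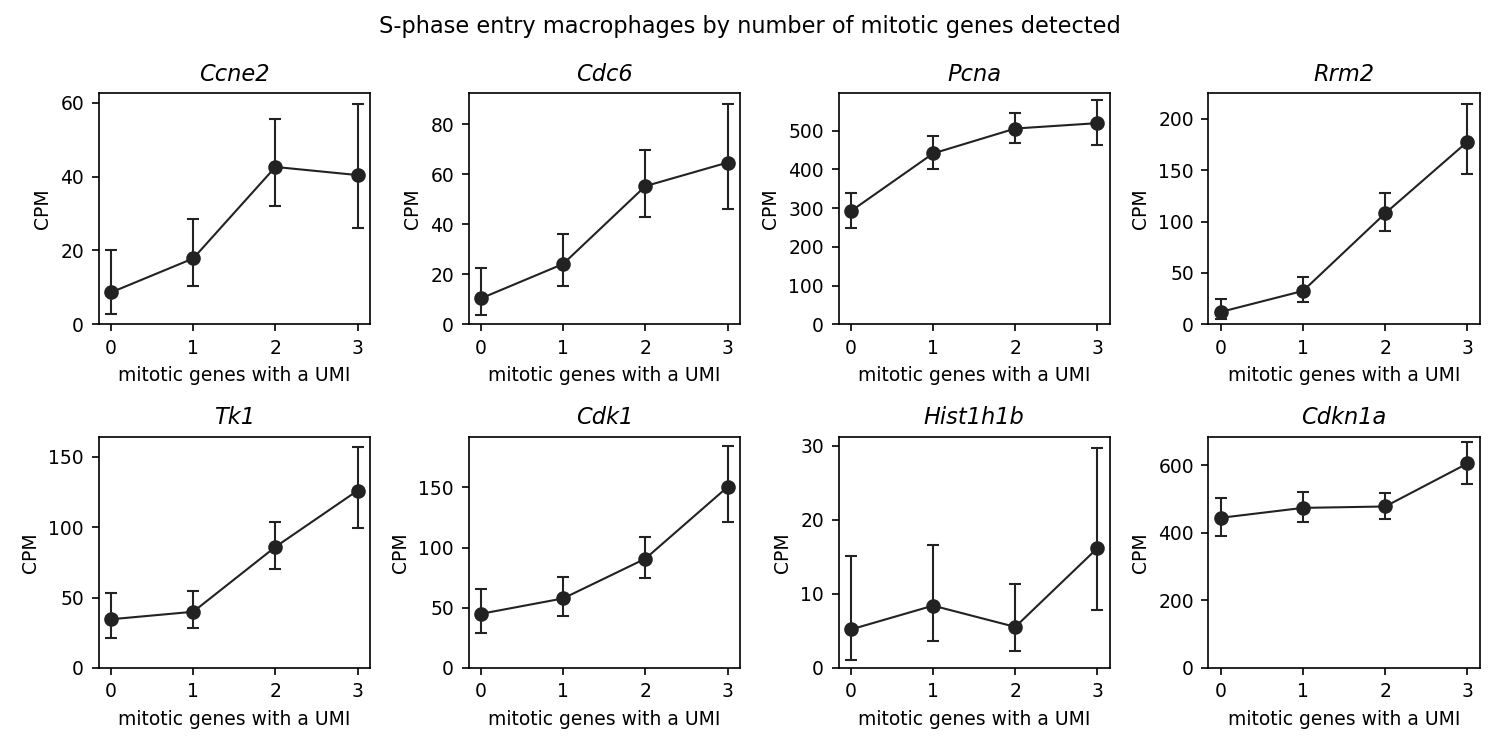
Level of 8 genes in S-phase entry macrophages with 0, 1, 2 or 3 of the 6 mitotic genes detected. Bars are exact Poisson 95% intervals.

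Receptors and lineage factors were close to those of other macrophages, at -0.16 (-0.19 to -0.14), but at 0.44 without scaling, and at 0.12 against mitotic macrophages. *Csf1r*, the receptor for CSF1, stood at 772 CPM in control and 761 CPM in telmisartan cells and at 0.20 (0.15 to 0.26) over other macrophages. Receptor subunits for GM-CSF were lower, with *Csf2rb* at -0.47 (-0.57 to -0.37). Without scaling, *Csf2rb* and *Csf2ra* turned higher, at 0.13 and 0.43, while *Csf2rb2* stayed lower at -0.18. Between the groups the list stood at 0.08 (0.03 to 0.14), but at -0.22 without scaling. *Maf*, a factor of resident-type macrophages, was lower with telmisartan at -0.37 (-0.56 to -0.18). *Klf4*, a factor of monocyte differentiation, was higher at 0.52 (0.39 to 0.65), with 0.68 in other macrophages. *Agtr1a*, *Agtr1b* and *Pparg*, which encode targets of telmisartan, and *Ace*, whose enzyme makes angiotensin II, were close to absent and together had 9 UMIs in the 267 cells.

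Macrophage identity genes stood at 0.07 (0.05 to 0.08) over other macrophages, but at -0.06 with TMM factors, and at 0.17 over mitotic macrophages. Within the list the genes went apart. The C1q subunits were higher, with *C1qa* at 0.67 (0.61 to 0.73), and *Mrc1*, the mannose receptor, stood at 0.53 (0.46 to 0.59). *Cd14*, a receptor for bacterial lipid, stood at -0.60 (-0.64 to -0.56) and *Cd86*, a costimulatory ligand, at -0.63 (-0.74 to -0.53). Between the groups the list stood at 0.17 (0.14 to 0.20), but at -0.13 without scaling. *Apoe*, a lipid carrier, was higher with telmisartan at 0.82 (0.74 to 0.90), and *C1qa* was lower at -0.35 (-0.49 to -0.21).

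Monocyte genes were low in these cells, at -0.46 (-0.51 to -0.41) against other macrophages, but at 0.14 without scaling. Mitotic macrophages were lower still, with S-phase entry cells at 0.21 (0.15 to 0.26) against them. *Ccr2*, the chemokine receptor that held 1963 of the 3685 UMIs of the list, was level at 0.01 (-0.05 to 0.08). *Plac8* stood at -2.90 (-3.34 to -2.504) and *Ly6c2* at -1.76 (-2.02 to -1.51), both genes of recently arrived monocytes. Between the groups the list had no stable direction. It stood at -0.0015 (-0.10 to 0.10), but at 0.40 with at least 15 UMIs of the replication genes per 10000, 0.12 with at most 10% mitochondrial UMIs and -0.31 without scaling. Its members went in both directions. *Ly6c2* was higher with telmisartan, with 22.5 CPM in control and 74.6 CPM in telmisartan cells, a ratio of 1.73 (1.21 to 2.26) against 1.32 in other macrophages. *Chil3*, a chitinase-like protein, was lower at -0.87 (-1.31 to -0.46).

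The Folr2 type genes *Cbr2*, *Fcrls* and *Folr2* were high in these cells, at 1.05 (0.95 to 1.16) against other and 0.59 (0.48 to 0.71) against mitotic macrophages. By pool, the ratio against other macrophages was 1.21 (1.09 to 1.33) in control and 0.67 (0.45 to 0.87) in telmisartan cells. All 3 genes were higher, beside 53.8% of all genes, and 1 was at least 2-fold higher, beside 5.28%. *Fcrls* held 490 of the 863 UMIs. Between the groups the list stood at -0.47 (-0.70 to -0.24), while other macrophages had 0.08. The value was -0.11 with at most 10% mitochondrial UMIs and -0.85 with fewer than 2 mitotic genes. *Fcrls*, a scavenger receptor-like protein, had 166 CPM in control and 91.3 CPM in telmisartan cells, a ratio of -0.86 (-1.20 to -0.53). *Folr2*, a folate receptor, went the other way at 0.28 (-0.12 to 0.67), turning to -0.03 without scaling. The Vcan Cd24a type genes stood at -0.71 (-0.83 to -0.60) against other and 0.06 against mitotic macrophages, and at -0.43 (-0.70 to -0.16) between the groups, turning to 0.17 with at least 15 UMIs of the replication genes per 10000.

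MHC class II type genes were lower with telmisartan. Their level was 10364 CPM in control and 5912 CPM in telmisartan cells, a ratio of -0.81 (-0.85 to -0.77), against -0.44 in other macrophages. All 4 antigen presentation genes of the list were lower, while *Il1r2*, a decoy receptor for interleukin-1, was higher at 0.43 (0.13 to 0.72). *H2-Aa*, a chain of the class II molecule, had 2201 CPM in control and 1115 CPM in telmisartan cells, and *Cd74*, its chaperone, had 4197 CPM in control and 2511 CPM in telmisartan cells. *Ciita*, the master regulator of these genes, stood at -1.63 (-2.60 to -0.79), but at -0.92 when the chosen cells were thinned to 5000 UMIs. The dendritic markers, given above, stood at -0.72 (-1.61 to 0.09) from 62 and 16 UMIs, and without any cell that had a UMI of one the class II ratio was -0.82. Against other macrophages the class II list stood at -0.52 (-0.53 to -0.50), but at 0.08 without scaling, and against mitotic macrophages at -0.36 (-0.38 to -0.34). The pools differed, with -0.49 (-0.50 to -0.47) against other macrophages in control and -0.86 (-0.89 to -0.82) in telmisartan cells.

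Interferon genes gave both directions. Type I interferon genes were low in these cells, at -1.61 (-1.75 to -1.46) against other macrophages, and at -2.32 in those with fewer than 2 mitotic genes. By pool, the ratio against other macrophages was -1.25 (-1.44 to -1.06) in control and -1.69 (-1.92 to -1.48) in telmisartan cells. Mitotic macrophages were as low, with S-phase entry cells at -0.06 (-0.22 to 0.10) against them. With telmisartan the list stood at 0.77 (0.48 to 1.06), where other macrophages had 1.22. Of the 9 genes, 8 were at least 2-fold lower than in other macrophages, beside 3.92% of all genes. Between the groups, 4 of the 9 were higher and 5 lower, beside 44.6% and 55.4% of all genes, so the split was near that of all genes. *Slfn4*, the most abundant, had 25.02 CPM in control and 56.9 CPM in telmisartan cells, and *Isg15*, a ubiquitin-like modifier, had 13.3 CPM in control and 34.3 CPM in telmisartan cells. *Rsad2* stood at 1.17 and *Oasl1* at 1.58, the latter at 0.56 when the chosen cells were thinned to 5000 UMIs. The lower ones had few UMIs and intervals that include 0: *Ifit1* at -0.57, *Ifit2* at -0.67, *Ifit3* at -2.09, *Mx1* at -1.47 and *Usp18* at -0.57. Interferon gamma genes stood at 0.42 (0.38 to 0.46) against other macrophages, but at 0.08 in cells with fewer than 2 mitotic genes, and at 0.43 (0.39 to 0.48) against mitotic macrophages. By pool, the ratio against other macrophages was 0.22 (0.18 to 0.27) in control and 0.73 (0.65 to 0.81) in telmisartan cells. Most UMIs of the interferon gamma genes came from *Cxcl9*, a chemokine for T cells, at 0.67 (0.62 to 0.72). Of the 7 genes 3 were higher, beside 53.8% of all genes. *Gbp2* stood at 0.03, *Gbp4* at -0.05, *Serpina3g* at -0.08 and *Irgm1* at -0.15. With telmisartan the interferon gamma list stood at -0.33 (-0.42 to -0.24), where other macrophages had -0.83, and at -1.12 with at least 15 UMIs of the replication genes per 10000.

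Hypoxia genes were low in S-phase entry cells, at -0.70 (-0.73 to -0.68) against other macrophages. All 12 were lower, beside 46.2% of all genes, and 5 were at least 2-fold lower, beside 3.92% of all genes. *Adm* had 0 UMIs in S-phase entry cells and thus no ratio, and is not among the 5. The 3.92% does count genes with 0 UMIs in S-phase entry cells as at least 2-fold lower. Without scaling *Pgk1*, *Ldha*, *Hk2* and *P4ha1* turned higher, at 0.18, 0.45, 0.06 and 0.15. Mitotic macrophages were nearly as low, with S-phase entry cells at -0.09 (-0.12 to -0.06) against them. *Bnip3*, a mitophagy receptor, stood at -1.35 (-1.50 to -1.21), and *Egln3*, an oxygen sensor, at -2.05 (-2.32 to -1.79). Between the groups the list stood at 0.24 (0.18 to 0.30), but at -0.07 without scaling. *Vegfa*, the endothelial growth factor, was higher with telmisartan, with 258 CPM in control and 493 CPM in telmisartan cells, a ratio of 0.93 (0.76 to 1.107) against 0.24 in other macrophages. The Cxcl3 F3 Slpi type genes stood at -1.92 (-2.05 to -1.79) against other macrophages, with -2.15 in control and -1.51 in telmisartan cells. These genes stood at 0.09 against mitotic macrophages, and at -0.04 (-0.33 to 0.23) between the groups. The latter had no stable direction, with 1.27 at 15 UMIs of the replication genes per 10000 or more, 0.93 without the highest Scrublet scores, 0.47 when the cells chosen at full depth were thinned to 5000 UMIs and -1.14 with fewer than 2 mitotic genes.

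The share of S-phase entry cells varied with these programmes when every macrophage was thinned to 5000 UMIs, with 1781 shallower cells left out. The cells counted here met the gate after thinning. They numbered 386, of which 217 (56.2%) had met it before, so they are not the 267 cells described above. With 0, 1 to 9 and at least 10 UMIs of the C1q genes the share was 2.69%, 4.10% and 8.03%. With 0, 1 to 2 and at least 3 UMIs of *Ly6c2* and *Plac8* it was 6.91%, 4.81% and 2.23%, the opposite order. With the same ranges of *Mrc1* it was 4.19%, 6.26% and 8.74%, and of the Folr2 type genes 5.17%, 7.25% and 12.1%. The widest range was that of hypoxia genes, where 0 to 9, 10 to 49 and at least 50 UMIs gave 13.1%, 5.66% and 0.206%, the last being 1 of 486 cells. With the same ranges of the MHC class II type genes the S-phase entry share was 7.12%, 6.59% and 4.82%. *Cxcl9* at 0, 1 to 4 and at least 5 UMIs gave 5.70%, 5.70% and 8.32%. With at least 8 UMIs of the replication genes the shares were lower, at 0.673%, 1.53% and 3.61% for C1q and 5.95%, 2.33% and 0% for hypoxia genes.

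Mitotic cells ran the same way as S-phase entry cells for 4 of the 7 programmes. Their shares were 4.38%, 8.57% and 12.3% for C1q, 11.2%, 8.47% and 3.95% for *Ly6c2* and *Plac8*, 9.39%, 11.02% and 14.5% for the Folr2 type and 21.3%, 9.28% and 1.44% for hypoxia genes. For *Mrc1* they were 8.11%, 13.1% and 9.64%, for the MHC class II type 10.7%, 8.60% and 10.6% and for *Cxcl9* 9.46%, 12.2% and 10.7%.

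Within these ranges the groups mostly kept their order. Among cells with at least 10 C1q UMIs the share was 9.69% (8.43 to 11.1%) in control and 5.89% (4.77 to 7.17%) in telmisartan macrophages. With at least 50 UMIs of the MHC class II type genes it was 6.04% (4.90 to 7.36%) and 2.49% (1.53 to 3.82%). The order was the other way with at least 3 UMIs of *Ly6c2* and *Plac8*, at 1.69% (0.464 to 4.28%) and 2.60% (1.20 to 4.88%), from 4 and 9 cells. It was also the other way with at least 50 UMIs of the hypoxia genes, with 0 of 286 control and 1 of 200 telmisartan cells.

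**Figure D4:**
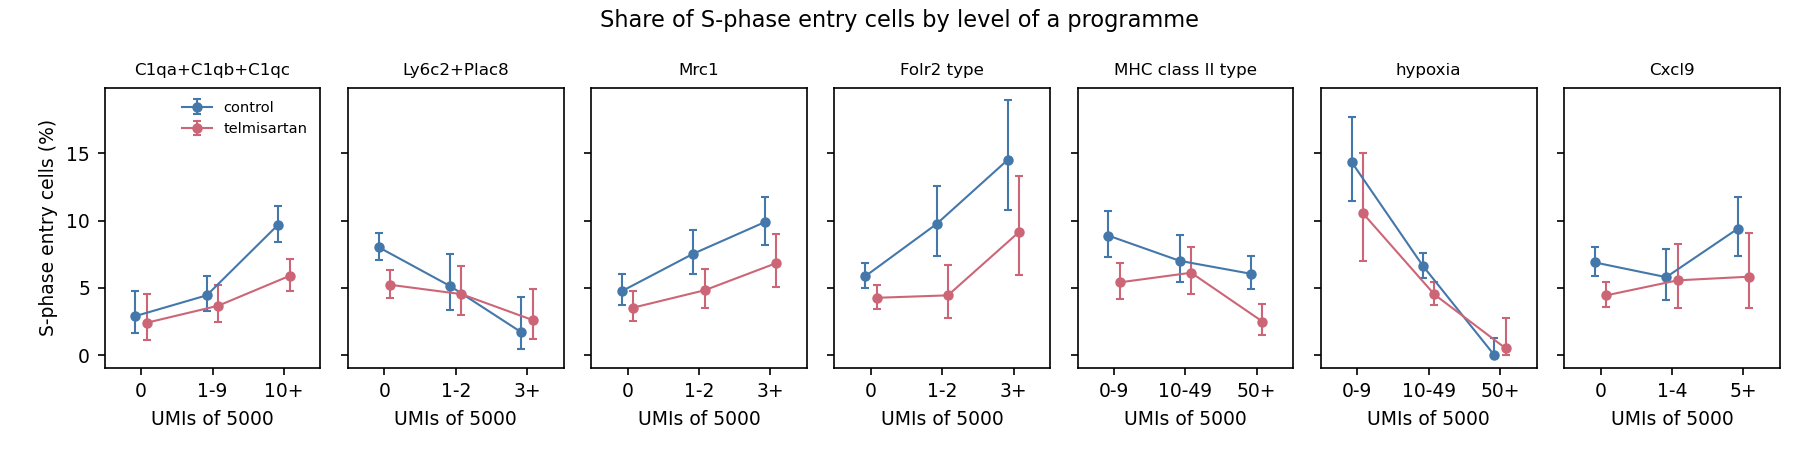
Share of S-phase entry cells in each pool by the UMIs of a programme, with every macrophage thinned to 5000 UMIs and the gate applied after thinning. Bars are exact 95% intervals for counting error only.

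Among genes outside the gate with at least 200 UMIs in S-phase entry cells, the lowest ratios of telmisartan over control began with *Ccl17* and *Ccl8*. *Ccl17*, a chemokine for T cells, had 93.8 CPM in control and 3.93 CPM in telmisartan cells, a ratio of -4.58 (-6.47 to -3.20), with 1 cell holding 31.4% of its UMIs. *Ccl8*, an attractant of monocytes, stood at -2.91 (-3.71 to -2.21), with 1 cell holding 25.2%. UMIs of *Ccl17* came from 21 control and 4 telmisartan cells and those of *Ccl8* from 33 and 10. *Mgl2*, a lectin of alternatively activated macrophages, was spread over 129 control and 37 telmisartan cells and stood at -1.47 (-1.68 to -1.26), near the -1.15 of other macrophages. *Cd69*, an activation marker, stood at -1.66 (-2.25 to -1.12) and *Il1a*, a cytokine, at -1.108 (-1.36 to -0.86). Other macrophages had -1.37 for *Ccl17*, -0.44 for *Ccl8*, 0.06 for *Cd69* and -0.41 for *Il1a*. The heat shock genes *Hspa1b* and *Hspa1a* stood at -1.38 and -1.06, where other macrophages had -0.37 and -0.07. *Gpr171*, a receptor, and *Tsc22d3*, a gene that glucocorticoids induce, both stood at -0.97, and *H2-Aa* at -0.98. Other macrophages had -0.29, -0.47 and -0.49 for these in that order.

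The highest ratio was that of *Nfkbie*, an inhibitor of NF-kB, which had 54.6 CPM in control and 195 CPM in telmisartan cells, a ratio of 1.84 (1.51 to 2.17). *Kdm6b*, a histone demethylase, stood at 1.75 (1.43 to 2.08), and *Nr4a3*, an immediate-early nuclear receptor, at 1.71 (1.40 to 2.03). *Crem*, a factor of the cyclic AMP response, stood at 1.58 and *Dusp5*, a phosphatase of ERK, at 1.46. These 5 genes were higher in other macrophages too, at 1.19, 1.29, 1.44, 0.83 and 0.85. *Antxr2*, an anthrax toxin receptor, stood at 1.54, *Pvr*, a ligand of TIGIT, at 1.52, and *Ifi27l2a*, an interferon gene, at 1.46, with 0.76, 0.99 and 1.22 in other macrophages. *Gm26745* stood at 1.59, with 1 cell holding 25.3% of its UMIs, and at 0.70 in other macrophages. *Thbs1*, thrombospondin 1, had 466 CPM in control and 1198 CPM in telmisartan cells, a ratio of 1.36 (1.25 to 1.48), where other macrophages had 0.20.

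At the other end, the 5 genes ranked lowest against other macrophages were nearly absent from S-phase entry cells. The minimum of UMIs for this ranking counted both classes together, and these genes met it through other macrophages. There they had 400, 394, 709, 208 and 208 UMIs, in the order named below. Other macrophages held 59599741 UMIs in all and S-phase entry cells 3417237. Such a ranking therefore picks genes with few UMIs in the smaller class. *Gm5483* had 0 UMIs in them and was at least 7.64-fold lower. *Retnla*, a resistin-like protein, had 1 UMI and stood at -4.50 (-9.80 to -2.01), and *Ereg*, a ligand of the EGF receptor, had 3 and stood at -3.76 (-6.04 to -2.21). *Hyal1*, a hyaluronidase, and *Mmp9*, a matrix protease, had 1 UMI each and stood at -3.58 (-8.89 to -1.08). Mitotic macrophages were also lower than other macrophages in these genes, at 1.43, 2.60, 2.60, 1.51 and 0.168 CPM against 6.71, 6.61, 11.9, 3.49 and 3.49.

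Promoters of the chosen genes were read for letters that E2F factors are known to favor. Sequences are from RefSeq, build GRCm38.p6, from 250 bases before to 50 after a gene's start. The E2F letters were TTTCCCGC, TTTGGCGC, TTTCGCGC and TTTGCCGC and the CHR letters TTTGAA, on either strand. A CHR is an element known from promoters of mitotic genes. Of the 8 replication genes of the gate 7 matched the table by symbol, *Mcm4* being absent, and 5 of the 7 held E2F letters: *Mcm3*, *Mcm5*, *Mcm6*, *Uhrf1* and *Hells*. Of the 89 replication genes outside the gate 71 matched, and 19 held them (26.8%). Among all 27025 genes of the table the share was 2.605%. Of the 6 mitotic genes 5 matched, of which 0 held E2F letters and 4 held CHR letters, as did 20.2% of all genes of the table.

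Shown first, for the letters that genes of the gate share, are *Mcm5* (chr8:75109259-75109558, + strand), *Mcm6* (chr1:128359656-128359955, - strand) and *Hells* (chr19:38930740-38931039, + strand). *Cdc6* (chr11:98907901-98908200, + strand) stands for genes outside the gate. In *Mcm5* and *Mcm6* a match on each strand overlaps the other. Capitals mark E2F letters on either strand, a description of these windows and not a site or a cause.
Mcm5: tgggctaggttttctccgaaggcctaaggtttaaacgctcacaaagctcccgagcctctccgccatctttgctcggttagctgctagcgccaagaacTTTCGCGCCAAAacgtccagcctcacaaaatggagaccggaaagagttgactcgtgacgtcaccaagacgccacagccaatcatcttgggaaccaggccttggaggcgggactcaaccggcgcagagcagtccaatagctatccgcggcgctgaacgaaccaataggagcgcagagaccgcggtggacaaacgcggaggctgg
Mcm6: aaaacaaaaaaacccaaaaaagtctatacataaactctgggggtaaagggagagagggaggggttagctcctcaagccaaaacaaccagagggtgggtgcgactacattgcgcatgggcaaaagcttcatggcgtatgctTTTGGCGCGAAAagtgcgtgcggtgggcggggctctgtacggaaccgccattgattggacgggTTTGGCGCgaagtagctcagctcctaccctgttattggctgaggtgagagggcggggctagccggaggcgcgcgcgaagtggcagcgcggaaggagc
Hells: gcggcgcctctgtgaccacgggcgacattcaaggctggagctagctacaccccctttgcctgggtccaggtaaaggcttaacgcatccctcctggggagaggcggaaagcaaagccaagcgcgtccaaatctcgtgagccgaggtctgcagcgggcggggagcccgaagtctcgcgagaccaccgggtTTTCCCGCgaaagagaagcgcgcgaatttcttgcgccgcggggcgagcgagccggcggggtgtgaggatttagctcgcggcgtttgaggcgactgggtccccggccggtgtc
Cdc6: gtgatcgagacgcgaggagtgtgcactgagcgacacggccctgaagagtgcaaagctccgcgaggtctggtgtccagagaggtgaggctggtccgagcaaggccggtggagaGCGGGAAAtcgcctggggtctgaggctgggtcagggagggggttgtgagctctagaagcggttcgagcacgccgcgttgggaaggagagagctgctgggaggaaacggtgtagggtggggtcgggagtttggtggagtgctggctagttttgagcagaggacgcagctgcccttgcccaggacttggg

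Shown for contrast are the mitotic genes *Top2a* (chr11:99024140-99024439, - strand) and *Ube2c* (chr2:164769679-164769978, + strand), which limit the cells at their other end. Capitals mark CHR letters on either strand.
Top2a: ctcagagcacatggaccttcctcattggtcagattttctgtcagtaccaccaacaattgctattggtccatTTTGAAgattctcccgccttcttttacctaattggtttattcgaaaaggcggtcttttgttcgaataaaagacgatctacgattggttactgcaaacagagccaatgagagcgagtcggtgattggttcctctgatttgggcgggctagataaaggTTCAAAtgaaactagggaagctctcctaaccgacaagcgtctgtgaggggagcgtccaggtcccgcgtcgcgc
Ube2c: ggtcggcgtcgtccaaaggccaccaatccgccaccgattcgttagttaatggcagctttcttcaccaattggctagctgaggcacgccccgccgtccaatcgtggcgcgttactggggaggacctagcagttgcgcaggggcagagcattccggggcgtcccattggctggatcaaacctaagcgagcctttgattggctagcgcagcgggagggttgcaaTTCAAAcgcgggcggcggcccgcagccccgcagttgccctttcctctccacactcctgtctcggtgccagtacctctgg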

How the data were processed

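The deposited tables hold counts, made by the authors with the BD Rhapsody WTA Analysis Pipeline 1.11 on GRCm38 with GENCODE M19: UMI counts per gene and cell, and Sample Tag read counts per cell. Members and gene lists were chosen with earlier results of these data known. Cells needed at least 10 Sample Tag reads with at least 75% on tag 1 (control) or tag 2 (telmisartan), 150 to 5000 genes and at most 20% mitochondrial UMIs. UMIs were summed over cells and given as CPM. Ratios carry exact conditional binomial, levels exact Poisson and shares Clopper-Pearson 95% intervals. The ratios were also computed on simulated Poisson counts, the error that their intervals assume. That run checks the computation only, as the simulated counts had no clumping of UMIs in single cells. Each group was 1 pool, so no test was made, and called means past 2-fold. Genes with at least 100 UMIs entered the comparison over all genes. Named genes are those of the lists and, among genes outside the gate with at least 200 UMIs, the 10 highest and 5 lowest against other macrophages and the 10 highest and 10 lowest ratios between groups. Not every gene of a list is discussed. The automatic threshold of Scrublet marked 0 cells and so did not work. Doublets were kept, and an alternative left out the 942 highest scores. Neutrophil-like cells and cells thinned to 5000 UMIs gave values for free RNA and depth. Other alternatives changed tag share, gene and mitochondrial limits, each threshold of the gate, dendritic markers, scaling and the UMI minimum. Python 3.11.15, numpy 2.4.6, scipy 1.17.1, pandas 2.3.3, scanpy 1.11.5, matplotlib 3.10.9, R 4.3.3 and edgeR 4.0.16 were used.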

Additional observations from a re-analysis of the deposited data

Results flagged for a closer look

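A list or gene was flagged where its ratio of telmisartan over control lay on opposite sides of 0 in S-phase entry cells and in other macrophages, with both counting intervals apart from 0. Of 282 list genes with UMIs in both groups 6 met this. The share of all genes that meet the rule was not computed, so the count is not read as a result about the lists. *Slpi*, a protease inhibitor, stood at 1.05 (0.53 to 1.58) in S-phase entry cells and at -0.28 in other macrophages, from 68 control and 60 telmisartan UMIs. In S-phase entry cells it stood outside that interval as a mean over cells, at 1.75, and when thinned to 5000 UMIs, at 2.17. *Slbp* stood at -0.45 and 0.15. The Folr2 type list stood at -0.47 and 0.080, with -0.11 in S-phase entry cells of at most 10% mitochondrial UMIs. *Lyz2*, which is the only gene with UMIs in the lineage list of the gate, stood at 0.15 and -0.12, and as the cells were selected on it this is a description. *Ccnd1* stood at 0.17 and -0.070, *Itgam* at 0.16 and -0.038, and *Pgk1* at 0.14 and -0.034. As UMIs per cell without scaling, *Slpi* alone kept opposite sides, at 0.75 and -0.63. The others were then lower in both classes, with *Lyz2* at -0.16 and -0.47, *Ccnd1* at -0.13 and -0.42, *Itgam* at -0.15 and -0.39, *Pgk1* at -0.17 and -0.38, *Slbp* at -0.76 and -0.20 and the Folr2 type list at -0.77 and -0.27. Whether these differ between the classes was not tested, as each group was 1 pool.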

How the results depend on the processing

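Of 466 values recomputed under 17 alternatives, 291 stayed within the main value's interval (within 1.5 times for the percents past 2-fold and within 0.1 for the median), and 9 changed sign where that interval lay apart from 0. The other 166 moved outside the interval or, where it spans 0, changed sign, some of them inside it. The narrower intervals of abundant lists make small moves count. The share was recomputed under 11 of the alternatives and was lower with telmisartan under each of them, from 1.94% against 0.934% to 7.20% against 4.75%. Under the 15 alternatives that gave list levels, replication genes outside the gate stayed above other macrophages, from 1.60 to 2.62 log2. MHC class II type genes stayed lower with telmisartan under the same 15, from -1.12 to -0.71. The monocyte and Cxcl3 F3 Slpi lists between groups, whose intervals span 0, changed sign under several alternatives and have no stable direction. A higher minimum of genes moved 0 values. The cause of each move below was not tested, except that stricter gates hold fewer cells and that TMM factors or no scaling shift every gene by the same amount. Values are log2 ratios, or percents where marked. At 5000 UMIs the shares gate the thinned cells, while levels use cells gated before thinning. No paired analysis was possible because each group was 1 pool. Depth limits genes with few UMIs: *Skp2* had 58 in the chosen cells.

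With a tag share of 90%, telmisartan over control was interferon gamma -0.18 and Cxcl3 F3 Slpi -0.55. S-phase entry over other was identity 0.048, monocyte -0.41 and MHC class II -0.43. With no upper limit on genes, telmisartan over control was MHC class II -0.77. The chosen over other cells gave identity 0.049 and Vcan Cd24a -0.57. With at most 10% mitochondrial UMIs, telmisartan over control was receptors 0.14, identity 0.26, monocyte 0.12, Folr2 -0.11, MHC class II -1.107, type I interferon 1.18 and Cxcl3 F3 Slpi -0.56. Against other macrophages stood replication 1.98, identity 0.042, type I interferon -1.84 and interferon gamma 0.50. Over all genes, the values were 2-fold lower 0.854%. With *Lyz2* of at least 10 UMIs, telmisartan over control was monocyte 0.027 and MHC class II -0.75. The ratio over other cells was identity 0.050, MHC class II -0.48, type I interferon -1.46 and interferon gamma 0.47. With at least 15 per 10000, the share was control 1.94% and telmisartan 0.934%. Telmisartan over control was identity 0.13, monocyte 0.40, Vcan Cd24a 0.17 (reversed), MHC class II -0.71, interferon gamma -1.12, Cxcl3 F3 Slpi 1.27 and hypoxia 0.38. S-phase entry over other was replication 2.20, receptors -0.20, identity 0.13, Folr2 1.41, MHC class II -0.66, interferon gamma 0.16 and hypoxia -0.78. Over all genes, the values were 2-fold higher 1.62% and 2-fold lower 0.902%. With at least 8 UMIs of the 8 genes, telmisartan over control was monocyte 0.0065 and MHC class II -0.77. The range shares were C1qa+C1qb+C1qc 0.673% (lowest), 1.53% (middle) and 3.61% (highest), then Ly6c2+Plac8 2.89% (lowest), 2.31% (middle) and 0.687% (highest), then Mrc1 1.54% (lowest), 2.76% (middle) and 3.89% (highest). Then came Folr2 type 2.08% (lowest), 3.28% (middle) and 5.59% (highest), then MHC class II type 3.0% (lowest), 2.81% (middle) and 2.02% (highest), then hypoxia 5.95% (lowest), 2.33% (middle) and 0% (highest). Then came Cxcl9 2.39% (lowest), 2.13% (middle) and 3.87% (highest). With fewer than 2 mitotic genes, the share was control 1.94% and telmisartan 1.14%. Telmisartan over control was replication 0.00053 (reversed), Folr2 -0.85, Vcan Cd24a -0.98, MHC class II -0.97, interferon gamma -0.65, Cxcl3 F3 Slpi -1.14 and hypoxia 0.32. Against other macrophages stood replication 1.60, receptors -0.12, monocyte -0.38, type I interferon -2.32 and interferon gamma 0.080. Over all genes, the values were 2-fold lower 0.856%. The range shares were C1qa+C1qb+C1qc 2.62% (middle) and 5.12% (highest), then Ly6c2+Plac8 4.40% (lowest) and 3.08% (middle), then Mrc1 2.57% (lowest), 4.06% (middle) and 5.70% (highest). Then came Folr2 type 3.20% (lowest), 5.06% (middle) and 7.87% (highest), then MHC class II type 4.59% (lowest), 4.21% (middle) and 3.05% (highest), then hypoxia 7.80% (lowest), 3.72% (middle) and 0% (highest). Then came Cxcl9 3.69% (lowest), 3.67% (middle) and 5.13% (highest). Without the highest Scrublet scores, telmisartan over control was monocyte 0.045, MHC class II -0.93, Cxcl3 F3 Slpi 0.93 and hypoxia 0.30. The ratio over other cells was MHC class II -0.49, Cxcl3 F3 Slpi -2.495 and hypoxia -0.73. Without cells with a dendritic marker, telmisartan over control was monocyte 0.077 and Cxcl3 F3 Slpi 0.35. S-phase entry over other was MHC class II -0.49 and Cxcl3 F3 Slpi -2.16. As a mean over cells, telmisartan over control was interferon gamma -0.46 and Cxcl3 F3 Slpi 0.43. The chosen over other cells gave replication 2.07, receptors -0.20, identity 0.14, monocyte -0.68, Folr2 1.21, Vcan Cd24a -0.92, MHC class II -0.56, type I interferon -1.94, Cxcl3 F3 Slpi -2.06 and hypoxia -0.76. Without mitochondrial and ribosomal protein genes in the totals, telmisartan over control was monocyte 0.013. With TMM factors, telmisartan over control was monocyte 0.015. The ratio over other cells was replication 1.89, receptors -0.29, identity -0.064 (reversed), monocyte -0.59, Folr2 0.93, Vcan Cd24a -0.84, MHC class II -0.65, interferon gamma 0.30, Cxcl3 F3 Slpi -2.05 and hypoxia -0.83. Without scaling, telmisartan over control was replication -0.44, receptors -0.22 (reversed), identity -0.13 (reversed), monocyte -0.31, Folr2 -0.77, Vcan Cd24a -0.74, MHC class II -1.12, type I interferon 0.47, interferon gamma -0.64, Cxcl3 F3 Slpi -0.35 and hypoxia -0.068 (reversed). S-phase entry over other was replication 2.62, receptors 0.44 (reversed), identity 0.66, monocyte 0.14 (reversed), Folr2 1.65, Vcan Cd24a -0.11, MHC class II 0.083 (reversed), type I interferon -1.01, interferon gamma 1.02, Cxcl3 F3 Slpi -1.32 and hypoxia -0.10. Over all genes, the values were median -0.35, 2-fold higher 0.346% and 2-fold lower 2.79%. Thinned to 5000 UMIs, the share was control 7.20% and telmisartan 4.75%. Telmisartan over control was MHC class II -0.76, interferon gamma -0.47 and Cxcl3 F3 Slpi 0.47. The chosen over other cells gave identity 0.14, Folr2 1.17, Vcan Cd24a -0.91, MHC class II -0.58, type I interferon -1.31 and hypoxia -0.78. Over all genes, the values were 2-fold higher 1.55%. Over genes with at least 50 UMIs, the values were 2-fold lower 1.59%. Over genes with at least 300 UMIs, the values were 2-fold lower 0.265%.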
